A study of Mus musculus with 4 samples.

Results

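The 74 genes described here encode mitochondrial ribosomal proteins. They are all rows of the deposited Ribo-seq table whose gene symbol starts with Mrpl or Mrps followed by a number, 47 Mrpl and 27 Mrps genes among 11598. Ribosome-protected fragments (RPFs), the stretches of mRNA shielded by a translating ribosome, were sequenced from leptotene and zygotene spermatocytes sorted from testes of mice at 12 days postpartum. Control libraries carry the genotype Wild type in the labels and come from littermates of Eef1g-cKO mice, which lack exons 2–7 of the gene for eEF1G in their germ cells, on a C57BL/6J background. There were 2 libraries of each genotype, and both genotypes were sorted in the same way and lysed with cycloheximide. The deletion was driven by Stra8-GFPCre, which acts in male germ cells from type A1 spermatogonia onward, so somatic cells that pass the sort keep an intact Eef1g. The sources used here do not say whether the 2 libraries of a genotype came from separate animals, and p-values measure only the spread between these libraries.

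Mitochondria translate their own small set of mRNAs, all of which encode subunits of the oxidative phosphorylation (OXPHOS) complexes, on a ribosome of their own. Its rRNAs come from mitochondrial DNA, but every one of its proteins is encoded in the nucleus, translated on cytosolic ribosomes and imported. The RPFs of Mrpl and Mrps mRNAs therefore come from cytosolic ribosomes, in whose work the elongation factor eEF1G takes part. RPF levels were not divided by mRNA levels here. The amount of an mRNA, the number of ribosomes on it and their speed thus cannot be told apart, and RPF changes are not changes in protein output. Among the 74, 28 large-subunit and 16 small-subunit proteins have a counterpart in bacterial ribosomes, and 21 and 9 have none. Mitoribosomal proteins without a counterpart mostly cover the surface of the particle. Mrpl genes encode proteins of the large subunit, which forms peptide bonds, and Mrps genes those of the small subunit, which reads the mRNA. The exceptions among the 74 are Mrps30 and Mrps18a, whose products sit in the large subunit, so that by place 49 genes belong to the large subunit and 25 to the small.

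Depth differed between the genotypes. Control libraries held 2479504 and 1384282 reads counted on genes and Eef1g-cKO libraries 223906 and 407979, which is 6.11 times fewer in sum. The median mitochondrial ribosomal protein gene had 106 and 64 reads in control but 8 and 13.5 in Eef1g-cKO, so counting error was largest there. Eef1g itself had 107 and 58 control reads but 0 and 4 Eef1g-cKO reads, where 9.56 and 17.4 would match its control share (adjusted p = 0.0731 in limma and 0.00780 in edgeR). The libraries also differed in the markers of other cell types. All 10 spermatogonial markers were lower in Eef1g-cKO, their summed level going from 2542 and 3049 RPM (reads scaled to the same total of counted reads in every library) to 438 and 444, and Lin28a was at 0 in 1 Eef1g-cKO library. All 10 Sertoli cell markers were lower (1308 and 331 against 281 and 206 RPM), and so were all 5 peritubular markers (270 and 238 against 84.9 and 100). The Sertoli cell marker Gata4 had 0 reads in both Eef1g-cKO libraries, where its control share would give only 1.91 and 3.48. Markers of leptotene and zygotene cells were present throughout and summed to 4362 and 3283 RPM in control compared with 7463 and 6954 in Eef1g-cKO. They did not move as one. Of 11 such markers 9 were higher in Eef1g-cKO, Spo11 among them by a log2 fold change of only 0.01. Stra8 (-1.21) and Rec8 (-0.54) were lower. Pachytene markers reached 739 and 649 against 902 and 1034, with 4 of 6 higher and 2 lower. Leydig and spermatid markers reached at most 41.2 RPM in any library, and no macrophage or blood marker was in the table. The part of these shifts in the results that follow was not tested. In bulk libraries, fewer cells of a type and less RNA per cell cannot be told apart.

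As a group, the mitochondrial ribosomal protein genes took overlapping shares of all RPFs in the 2 genotypes, while individual members moved in both directions. Their summed reads made up 4042 and 4864 RPM in control compared with 4252 and 3814 in Eef1g-cKO. The Eef1g-cKO libraries overlapped the control libraries, and the ratio of the means was 0.906 (exact two-sided permutation test, p = 0.667; 2 libraries against 2 cannot go below 0.33). Large-subunit reads were 1.94 and 2.00 times small-subunit reads in control and 1.90 and 2.11 times in Eef1g-cKO, again overlapping. Cytosolic ribosomal protein genes, by comparison, summed to 7191 and 8655 RPM in control compared with 5587 and 5265 in Eef1g-cKO without overlap, a ratio of 0.685 that stands at the smallest exact permutation p of 0.33.

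**Figure D1:**
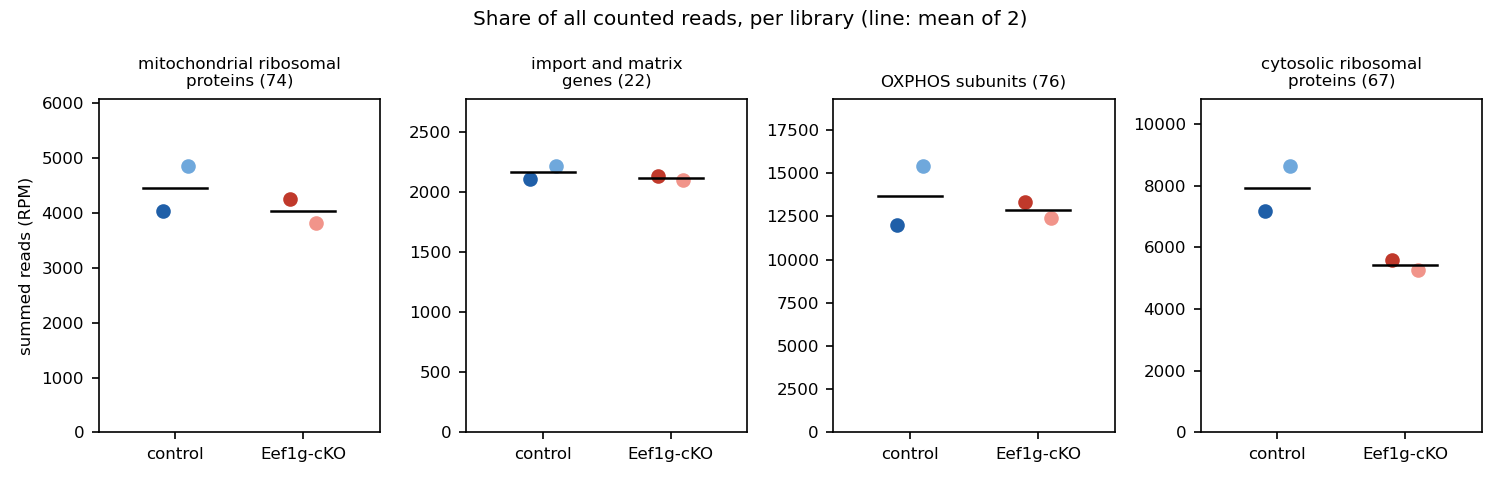
Summed RPM (vertical axes, starting at 0) of 4 gene lists in each of the 2 control (blue) and 2 Eef1g-cKO (red) libraries, with the mean of each genotype as a line. The mitochondrial ribosomal protein genes overlap between genotypes at 3814 to 4864 RPM, whereas both Eef1g-cKO libraries lie below both controls for the cytosolic ribosomal proteins.

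Gene by gene, all 74 members passed the filter of a mean of at least 1 FPKM (fragments per kilobase of gene, scaled to the reads counted in the library) and entered the limma fit on log2(FPKM + 1) in which 10475 genes were tested. A gene was called where the log2 fold change was beyond 1 in size and p was under 0.05. By Benjamini-Hochberg adjusted p, RPFs of 4 members fell (Mrps26, Mrpl37, Mrpl28 and Mrps7), beside 4.97% of all tested genes, and those of 2 rose (Mrpl53 and Mrps18c), beside 2.87%. By unadjusted p, 14 members were lower (16.3% of all tested genes) and 5 higher (7.32%), and 55 of the 74 passed neither way. Both Eef1g-cKO libraries lay below both controls for 32 members (37.7% of all tested genes) and above both for 16 (24.6%). The median log2 fold change of the 74 was -0.37, with quartiles of -0.93 and 0.20, and that of all tested genes was -0.23. Genes in which neither Eef1g-cKO library held more than 3 reads, 7 members and 2701 of all tested genes, were also set to 3 reads there. The 2 medians then became -0.33 and 0.07. For a gene with 1 to 3 reads that value is no upper limit. These medians are therefore not bounds, and the 0.07 cannot be separated from the replacement itself. The shares of members called were thus near those of the whole table. Each control library was needed for the adjusted calls: without control replicate 1 or without control replicate 2, limma called 0 members by adjusted p in either direction, and by unadjusted p 4 lower and 3 higher each time. Without Eef1g-cKO replicate 1 it called 10 lower and 1 higher by adjusted p, and without Eef1g-cKO replicate 2 it called 13 lower and 5 higher.

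The balance between the directions depended on the scale. Centring each library on its median moved the median of all genes up by 0.21 on the log2 scale. It left 32 members higher and 42 lower in place of 24 and 50, and the adjusted calls became 5 increases (Mrpl53, Mrps18c, Mrpl1, Mrpl11 and Mrpl32) and 1 decrease (Mrpl28). The shares of all tested genes called after centring are not given here. The count models, run on the reads recovered from the normalized counts, gave more increases. edgeR's quasi-likelihood test called 7 decreases (11.2% of its tested genes) and 4 increases (8.75%) among the 72 members it tested. DESeq2 called 0 decreases (5.34% of all genes with an adjusted p, and 7 members by unadjusted p) and the same 4 increases (5.94%).

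**Figure D2:**
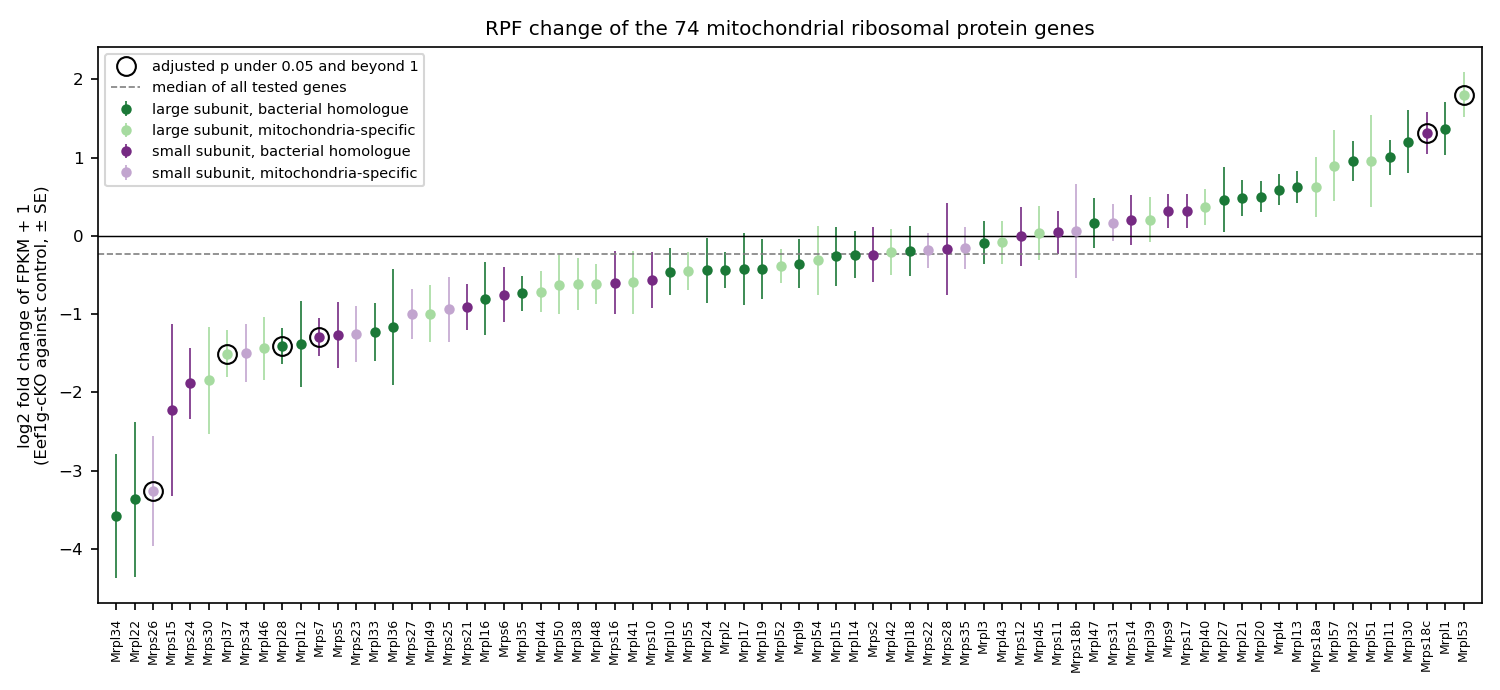
log2 fold change of FPKM + 1 in Eef1g-cKO against control for each of the 74 genes, ordered by size, with the limma standard error as a bar (2 libraries per genotype). Colours give the subunit and whether the protein has a bacterial homologue, rings mark the 6 genes called by adjusted p, and the dashed line is the median of all tested genes at -0.23.

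Mrpl53, Mrps18c, Mrpl1 and Mrpl11 were called higher in Eef1g-cKO by both count models, and the first pair by limma too. Mrpl53 encodes a protein of the large subunit without a bacterial homologue. It had 31 and 25 reads in control compared with 14 and 19 in Eef1g-cKO, or 20.2 and 29.1 FPKM against 101 and 75.1. The deeper control libraries thus held few more reads than the shallow Eef1g-cKO ones, and the log2 fold change was 1.80 ± 0.29 (SE; limma, adjusted p = 0.0334). It stayed called in 12 of the 17 alternatives, with log2 fold changes between 1.55 and 2.26. Mrps18c, the small-subunit counterpart of bacterial protein S18, went from 116 and 77.7 FPKM (144 and 54 reads) to 267 and 210 FPKM (30 and 43 reads). Its log2 fold change of 1.31 ± 0.27 had an adjusted p of 0.0468 in limma. It stayed called in 9 of 17 alternatives, with log2 fold changes down to 0.89, and lost the call once the coding GC trend was removed. Mrpl1, whose bacterial homologue forms the flexible stalk beside the tRNA exit, had 8.28 and 6.55 FPKM in control compared with 23.5 and 18.1 in Eef1g-cKO, a log2 fold change of 1.37 that limma did not call (adjusted p = 0.0613) and edgeR did (adjusted p = 0.00617). Mrpl11, a neighbour of the factor-binding site in bacteria, had 23.8 and 25.8 FPKM against 51.1 and 50.2, with an edgeR adjusted p of 0.00575 and a limma adjusted p of 0.0539. For all 4 genes both Eef1g-cKO libraries lay above both controls.

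In 7 members neither Eef1g-cKO library held more than 3 reads, and in 3 of them, those with the largest fitted decreases, Eef1g-cKO replicate 1 held 0. Mrps26, a small-subunit protein without a bacterial homologue, had 32 and 29 reads in control compared with 0 and 1 in Eef1g-cKO, where its control share would give 3.53 and 6.44. Mrpl34, the homologue of the small bacterial protein L34, had 31 and 29 reads against 0 and 1. Mrpl22, which in bacteria lines the tunnel through which the new peptide leaves, had 33 and 43 against 0 and 2. The pooled share of reads in Eef1g-cKO over control was 0.1002 for Mrps26 (95% exact interval 0.00250 to 0.580), 0.102 for Mrpl34 (0.00254 to 0.590) and 0.161 for Mrpl22 (0.0191 to 0.602). These intervals cover counting error only. The fitted log2 fold changes of -3.27, -3.57 and -3.37 depend on the constant added to values of 0. Of the 3, Mrps26 alone was called by limma (adjusted p = 0.0493), and edgeR called Mrps26 and Mrpl34 (adjusted p = 0.0417 and 0.0439).

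The other members called as decreased rest on more reads. Mrpl28, the homologue of bacterial L28, had 213 and 154 reads in control compared with 8 and 15 in Eef1g-cKO, or 80.7 and 104 FPKM against 33.5 and 34.5. Its log2 fold change was -1.41 ± 0.23 (SE; limma, adjusted p = 0.0350), and it stayed called in 11 of 17 alternatives, beside 10 for Mrps7 and 9 each for Mrpl37 and Mrps26. Mrpl37, a large-subunit protein particular to mitochondria, went from 47.4 and 40.1 FPKM to 11.9 and 18.0 (log2 fold change -1.51, limma adjusted p = 0.0446). Mrps7, the homologue of the bacterial protein that organises the head of the small subunit, went from 43.3 and 46.4 FPKM to 16.9 and 18.5 (log2 fold change -1.29, limma adjusted p = 0.0394). In all 3 the Eef1g-cKO libraries lay below both controls by more than either pair of replicates differed.

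**Figure D3:**
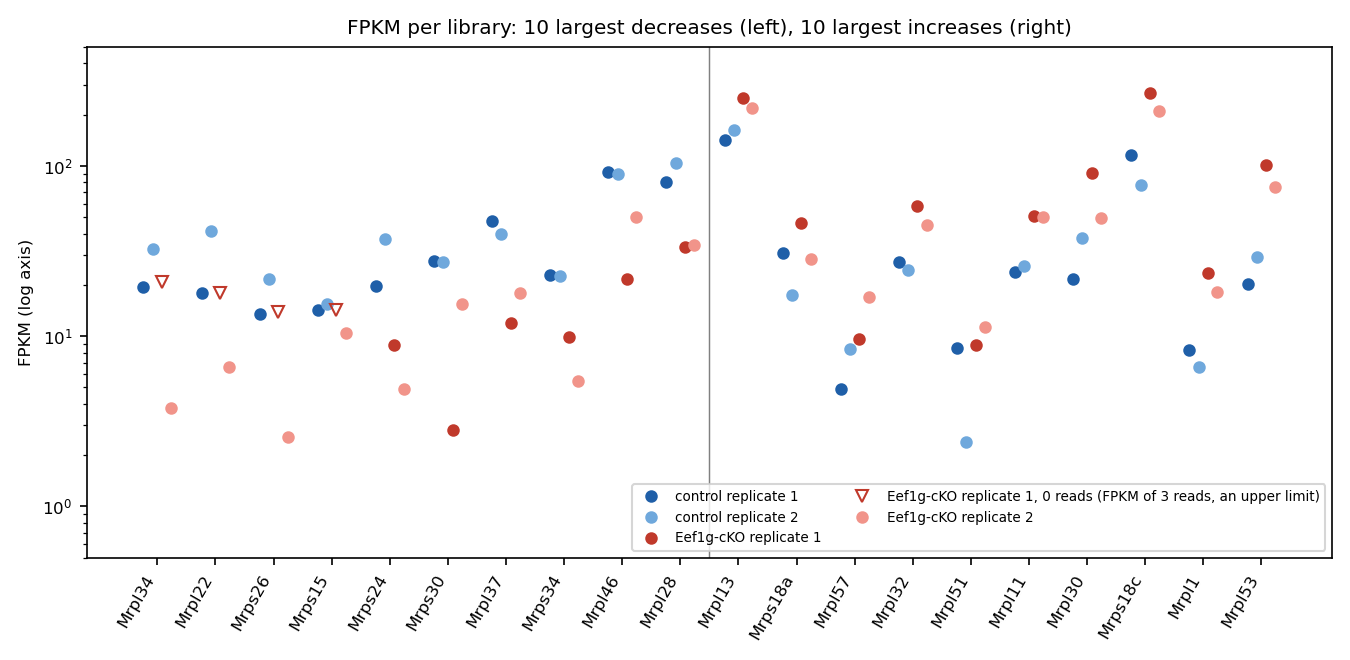
FPKM (log axis) in each library for the 10 members with the largest decreases (left) and the 10 with the largest increases (right), with control in blue and Eef1g-cKO in red. Open triangles mark the 4 genes with 0 reads in Eef1g-cKO replicate 1 at the FPKM that 3 reads would give, an upper limit. For those 4 genes the limit lies close to the lower control value, whereas Mrpl28 and Mrpl53 have reads in all 4 libraries and do not overlap.

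The start of 6 of these coding sequences is shown because the called genes differ in how often their codons end in G or C. Each line gives the first 30 codons from the start codon, 5′ to 3′, from the GENCODE M21 transcripts of GRCm38, with every G or C at the third codon position in capitals. Mrpl53, Mrpl1 and Mrps18c were higher in Eef1g-cKO, and Mrpl34, Mrps26 and Mrpl28 were lower.
Mrpl53: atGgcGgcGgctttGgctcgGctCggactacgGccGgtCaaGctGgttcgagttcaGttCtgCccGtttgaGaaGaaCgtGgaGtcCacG
Mrpl1: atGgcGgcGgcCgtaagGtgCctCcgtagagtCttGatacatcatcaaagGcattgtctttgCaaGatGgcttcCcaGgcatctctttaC
Mrps18c: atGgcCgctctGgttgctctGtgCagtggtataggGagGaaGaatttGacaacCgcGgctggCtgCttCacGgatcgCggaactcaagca
Mrpl34: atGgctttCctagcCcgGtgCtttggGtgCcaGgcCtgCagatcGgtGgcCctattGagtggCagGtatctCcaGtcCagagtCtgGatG
Mrps26: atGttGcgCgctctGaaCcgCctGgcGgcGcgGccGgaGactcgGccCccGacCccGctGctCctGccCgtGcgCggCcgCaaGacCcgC
Mrpl28: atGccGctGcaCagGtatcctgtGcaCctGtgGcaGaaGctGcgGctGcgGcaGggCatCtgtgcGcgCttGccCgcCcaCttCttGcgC

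Over the whole coding sequence, G or C ended 35.4% of the codons of Mrpl1 and 45.5% of those of Mrps18c, but 75.9% in Mrpl28, 80.5% in Mrps26 and 83.7% in Mrpl34. These genes were picked from both ends of the fold changes. Mrpl53 went against that order, with 77.1% and the largest increase of all members, and so did Mrpl22, with 55.8% and one of the largest decreases. Among the other genes called, the percentage was 58.3% in Mrpl11, 64.5% in Mrpl37 and 71.5% in Mrps7. Across the 74 genes the log2 fold change was lower at higher third-position GC, at a Spearman correlation of -0.28, and across 10117 tested genes with a coding sequence at -0.30. Genes share library depth and base composition and are not independent replicates, so both are descriptions. The 37 members below the median third-position GC of 59.1% had a median log2 fold change of -0.19, with 3 lower and 4 higher by unadjusted p. The 37 others had -0.45, with 11 lower and 1 higher. Over all tested genes, whatever their GC, 16.3% were lower and 7.32% higher by unadjusted p. The shares of all genes within these GC ranges are not given, so the counts cannot be read as particular to the members. When all genes were divided into 10 bins by third-position GC, the median went from 0.22 in the lowest bin to -0.72 in the highest. The highest bin held 11 members with a median of -1.17. Neither coding length nor gene length showed such a relation among the members, at Spearman correlations of -0.10 and -0.01.

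**Figure D4:**
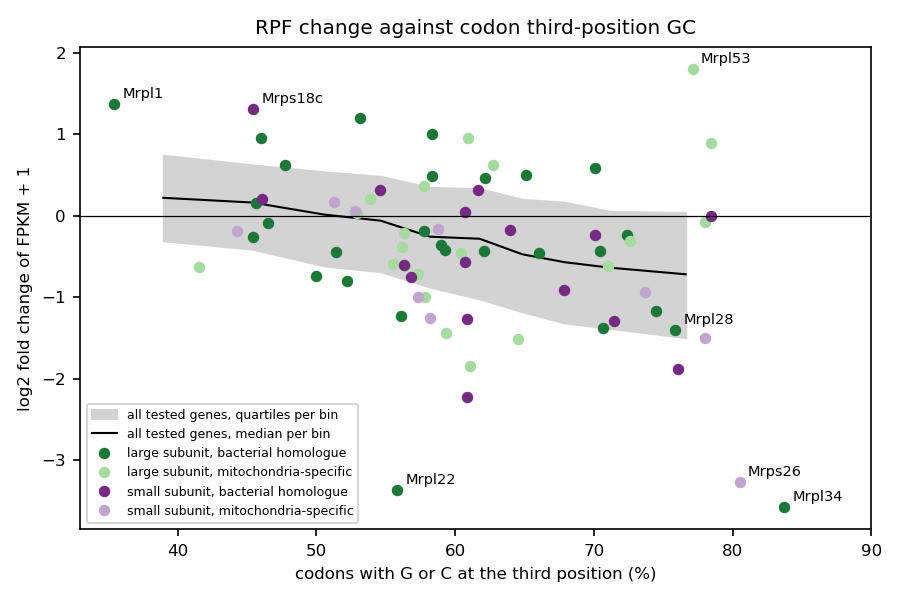
log2 fold change of FPKM + 1 against the percentage of codons with G or C at the third position, for the 74 members (points, coloured by subunit and homology) and for all tested genes in 10 bins (line for the median, grey band for the quartiles). The median of all genes goes from 0.22 to -0.72 across the bins. Mrpl53 and Mrpl22 lie far from the band, above and below it.

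By place in the ribosome, the large subunit had 8 members lower and 4 higher by unadjusted p among 49 (16.3% and 7.32% of all tested genes) and 2 and 1 by adjusted p (4.97% and 2.87%), with a median log2 fold change of -0.36. The small subunit had 6 lower and 1 higher among 25 (2 and 1 by adjusted p), with a median of -0.56. The lowest median, -0.94, was that of the 9 small-subunit proteins without a bacterial homologue. It became -0.67 with Mrps26 and Mrps34, which had few reads, set to 3 reads in each Eef1g-cKO library. Both Eef1g-cKO libraries lay below both controls for 5 of the 9 (Mrps23, Mrps25, Mrps26, Mrps27 and Mrps34) and above for none, beside 37.7% and 24.6% of all tested genes. Together the 9 took 444 and 608 RPM in control, and 429 and 346 in the Eef1g-cKO libraries. The genotypes were barely separate (exact permutation p = 0.33, the smallest possible). Mrps34 had 22.9 and 22.5 FPKM against 9.95 and 5.46, and Mrps23 29.7 and 47.1 against 19.0 and 11.9. In limma both were lower by unadjusted p only. edgeR called Mrps23 (adjusted p = 0.0476) and not Mrps34, which rests on 2 reads in each Eef1g-cKO library. The same group also holds Mrps22, at 101 and 130 FPKM against 107 and 94.8, so that its members did not move as one. The medians of the other groups were -0.31 for the 28 large-subunit proteins with a bacterial homologue, -0.38 for the 21 without and -0.40 for the 16 small-subunit proteins with one.

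Further members passed by unadjusted p but not by adjusted p in limma. Of these, edgeR called Mrpl46 (adjusted p = 0.0298). Among large-subunit proteins, Mrps30 had 27.6 and 27.3 FPKM in control compared with 2.81 and 15.4 in Eef1g-cKO, Mrpl46 92.5 and 89.9 against 21.7 and 50.0, Mrpl33 161 and 127 against 86.3 and 42.1, and Mrpl12 27.6 and 21.3 against 4.71 and 15.5. In each of these the Eef1g-cKO replicates lay further apart, as a ratio, than the control replicates. Mrpl12 is the homologue of the bacterial stalk protein that recruits translation factors. In the small subunit, Mrps24 had 19.6 and 37.3 FPKM against 8.87 and 4.87, and Mrps5 15.7 and 27.2 against 6.23 and 10.3. Mrps15 had 33 and 20 reads against 0 and 4. Its log2 fold change of -2.22 was beyond 1 in size, but it was not called (limma unadjusted p = 0.0914). On the side of the increases Mrpl30, a large-subunit protein, had 21.6 and 37.6 FPKM against 90.5 and 49.7 and was higher by unadjusted p alone. Mrpl32, Mrpl51, Mrpl57 and Mrpl13 had log2 fold changes of 0.95, 0.96, 0.89 and 0.62, below the threshold of 1, with separate genotypes. Mrps18a (0.62) overlapped.

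The 3 Mrps18 genes are paralogs related to bacterial S18. The product of Mrps18c alone takes the place of S18, and the other products sit elsewhere in the particle and are counted here with the proteins without a bacterial counterpart. Their values differed. Mrps18c rose as described. Mrps18a, in the large subunit, had 30.8 and 17.6 FPKM in control compared with 46.5 and 28.4 in Eef1g-cKO, and Mrps18b, in the small subunit, had 21.4 and 30.9 against 50.9 and 14.0. Mrps18b thus had the widest gap between Eef1g-cKO replicates of the 3, resting on 12 and 6 reads, and no direction can be given for it. Mrpl36 and Mrpl27 had at most 2 reads in each Eef1g-cKO library. Their pooled ratios of 0.399 (95% exact interval 0.0793 to 1.24) and 1.53 (0.277 to 5.66) included no change.

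The members with the highest control FPKM were Mrps6, Mrpl13, Mrpl33, Mrpl52, Mrpl38, Mrpl3, Mrps22 and Mrps17. None of the 8 was called by adjusted p, and Mrpl33 alone passed by unadjusted p. Mrps6, which pairs with S18 in bacteria, had 190 and 117 FPKM against 68.7 and 113. Mrpl13 had 142 and 163 against 250 and 218, and Mrps17 100 and 123 against 149 and 129, both with separate genotypes. Mrpl3, which lies near the peptidyl transferase centre in bacteria, had 99.3 and 146 FPKM against 131 and 97.7, and Mrpl38 had 96.0 and 168 against 69.6 and 97.3. Both overlapped, and so did Mrps22. Mrpl52 had 154 and 123 FPKM against 97.6 and 113.

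FPKM in the table divide by the length of the whole gene model, so levels were also taken per coding length. On that scale (RPM per kilobase of coding sequence) the 74 members had a median of 68.8 in control and 60.02 in Eef1g-cKO. Control levels ran from 7.25 in Mrpl27 to 372 in Mrps17. The middle 50% of members spanned 43.1 to 124 in control, a factor of 2.87, and a factor of 3.60 in Eef1g-cKO. Proteins that sit in the ribosome at 1 copy per particle (Mrpl12 is the known exception) were thus spread widely in RPF level. Mrps17 held the first rank in both genotypes, followed in control by Mrpl35 (364) and Mrps14 (362) and in Eef1g-cKO by Mrps14 (427) and Mrpl13 (345). Mrps18c moved from rank 26 to rank 4, Mrpl53 from 55 to 13, Mrpl1 from 69 to 28 and Mrpl11 from 19 to 5, while Mrpl28 moved from 18 to 45. The FPKM of the members correlated at a Spearman rho of 0.903 within control, 0.909 within Eef1g-cKO and 0.766 to 0.841 across genotypes.

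**Figure D5:**
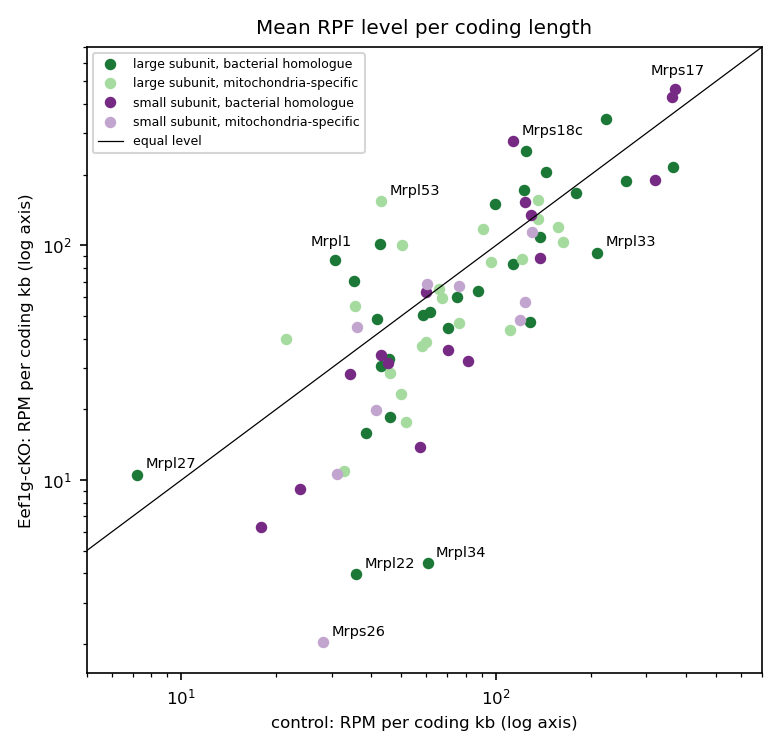
Mean RPF level in RPM per kilobase of coding sequence (log axes), control on the horizontal and Eef1g-cKO on the vertical axis, for each of the 74 members, coloured by subunit and homology, with the line of equal level. Mrps17 is highest in both genotypes, Mrpl53, Mrpl1 and Mrps18c lie above the line, and Mrps26, Mrpl34 and Mrpl22 fall far below it.

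The 6 remaining proteins of the particle that the table lists under another symbol (Dap3, Ptcd3, Aurkaip1, Chchd1, Gadd45gip1 and Ict1) had a median log2 fold change of 0.31, and limma called 0 of them by adjusted p and 1 by unadjusted p. The nearest was Chchd1, a small-subunit protein, at 67.1 and 61.9 FPKM in control compared with 128 and 115 in Eef1g-cKO (limma adjusted p = 0.0516). Gadd45gip1 was lower by unadjusted p alone, at 14.9 and 17.5 FPKM against 5.15 and 9.89. Of 16 mitochondrial translation factors, 0 passed by limma's adjusted p and 1 by unadjusted p (median 0.09). Of 29 tested assembly and rRNA modification factors, 1 fell and 1 rose by limma's adjusted p, with 4 lower and 4 higher by unadjusted p (median 0.16). The decrease was Rbfa, which matures the small-subunit rRNA, at 55.4 and 58.3 FPKM against 13.3 and 10.98 (log2 fold change -2.14, limma adjusted p = 0.0250). The increase was Spg7, a subunit of the inner-membrane protease that processes Mrpl32 protein, at 27.1 and 17.2 against 73.3 and 71.9 (1.70, adjusted p = 0.0352). By adjusted p, edgeR and DESeq2 each called 2 decreases and 2 increases in this list. They added Gtpbp10, at 31.5 and 56.2 FPKM against 13.7 and 14.2, and Grsf1, at 32.5 and 22.4 against 53.5 and 60.4.

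Among 22 genes of mitochondrial import and matrix content, Hspe1, the co-chaperonin of Hsp60, fell (211 and 230 FPKM against 52.3 and 31.9, limma adjusted p = 0.0249) and Tomm70a, an import receptor, rose (32.6 and 29.6 against 74.5 and 79.8, adjusted p = 0.0352). The list summed to 2115 and 2223 RPM in control compared with 2135 and 2103 in Eef1g-cKO. The 14 genes of mitochondrial DNA transcription and RNA processing held 0 calls by limma's adjusted p and 1 by unadjusted p (median -0.38). Of 76 nuclear-encoded OXPHOS subunits, whose mitochondrial partners the mitoribosome makes, 8 fell and 3 rose by adjusted p, with a median of -0.22. Of 66 tested cytosolic ribosomal protein genes, 7 fell and 0 rose by limma's adjusted p, with 15 lower and 1 higher by unadjusted p. Their median was -0.59, but 0.07 with genes of few Eef1g-cKO reads set to 3 reads. That value is no bound and cannot be separated from the replacement. The same step, which touched 7 of the 74 mitochondrial ribosomal protein genes, moved their median from -0.37 to -0.33.

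In the GENCODE annotation 32 of the 74 members overlap an exon of another gene, 18 of them one that is in the table. Mrpl53 (chromosome 6, 83109108 to 83109932, GRCm38) shares exon sequence with Gm42688 on its own strand and with an antisense RNA of Ccdc142. Mrps18c (chromosome 5, 100798759 to 100804467) overlaps Gm43511, a transcript of unknown class on its own strand. Mrps26 (chromosome 2, 130563757 to 130565394) overlaps the antisense RNA 4930473A02Rik, and Mrps7 (chromosome 11, 115604140 to 115608036) overlaps Gga3 and Mif4gd on the other strand. Mrpl46 and Mrps11 overlap each other head to head on chromosome 7. Mrpl46 was lower by unadjusted p, while Mrps11 had 65.3 and 76.2 FPKM against 89.9 and 58.8. Mrpl28 and Mrpl37 overlap no other exon. Whether reads were assigned by strand is not given in the sources used here, so the values of the overlapping genes may include their partner's reads.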

How the data were processed

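The authors deposited 1 Ribo-seq table for 4 libraries, 2 control and 2 Eef1g-cKO. FPKM were computed by the authors with a gene length and with all reads assigned to genes as the library total. Its deposited normalized counts are a signal, in which each library was scaled by 1 factor, and 100% of them are whole multiples of the value of 1 read within 0.01, so the reads were recovered. The submitters' processing notes name cutadapt, Bowtie and STAR and the builds mm10 and hg38, without roles. The counter, its use of strand and the annotation are not given in the sources used here. The table's own mean count and 5 columns of fold change, its error, test score and p-values were not used.

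limma 3.58.1 (R 4.3.3, trended prior variance) was fitted to log2(FPKM + 1) wherever the mean over libraries reached 1 FPKM (10475 genes), with Benjamini-Hochberg adjustment over all of them. The added 1 compresses differences between low values. For the 4 members with 0 reads in a library the fitted changes were nevertheless larger in size than in edgeR (Mrps15, -2.22 against -1.09). edgeR 4.0.16 and DESeq2 1.42.0 on the recovered reads, other pseudocounts and filters, centring, thinning to equal reads, totals over protein-coding genes, removal of the trend with coding GC, a replicate block and leaving out each library were alternatives. Only the main limma, edgeR and DESeq2 fits were also run on simulated reads. That simulation held no shift in cell types or base composition, so it cannot show how the fits behave under such shifts. Intervals of read ratios are exact at 95% and cover counting error only. For 0 reads the upper limit is 3 reads. All 74 symbols matched RefSeq genes of GRCm38.p6 and GENCODE M21 coding sequences (longest per gene); the table does not name its own annotation, so coordinates are for orientation. Mrpl23, Mrps33 and Mrps36 were not analysed here.

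The members and the gene lists were chosen with earlier results of these data known. The genes named are Eef1g, members called by adjusted p, the 10 largest increases and 10 largest decreases with a mean of at least 5 FPKM, the 8 with the highest control FPKM, the Mrps18 paralogs, Mrps30, mitoribosomal proteins under other symbols, members with 0 reads in a library, and genes of the assembly and import lists called by adjusted p. Most of the called cell type markers and all called OXPHOS subunits and cytosolic ribosomal proteins are not named. The few markers named were picked from their lists after their values were seen. Members lower or higher by unadjusted p, those with no more than 3 reads in either Eef1g-cKO library and those that a count model called, overlap in the annotation or rank highly per coding length are named in addition, chosen after their values were seen.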

Additional observations from a re-analysis of the deposited data

How the results depend on the processing

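The median log2 fold change of the 74 members stayed negative in all 17 alternatives, at -0.16 after centring, -0.26 with the coding GC trend removed and -0.54 to -0.21 when 1 library was left out. The median of all genes was negative there too, and the difference between them was -0.14 in the main fit. It shrank to -0.004 with the GC trend removed, -0.01 without control replicate 2, -0.04 in DESeq2 and -0.08 with no filter. In other settings it grew, to -0.31 without control replicate 1, -0.29 at a mean of at least 5 FPKM and -0.23 in edgeR. The ratio of summed reads, 0.906, ran from 0.829 (without control replicate 1) to 0.998 (without control replicate 2). The adjusted calls of limma (4 decreased, 2 increased) changed in number with most settings. They were 0 and 0 with a pseudocount of 0.1 FPKM (13 and 5 by unadjusted p), without the variance trend (12 and 4) and in libraries thinned to equal reads (12 and 3). They were 8 and 2 with a pseudocount of 5 FPKM, 2 and 1 with no filter, 7 and 4 at a mean of at least 5 FPKM, and 1 and 5 after centring. edgeR gave 7 and 4, edgeR with DESeq2 size factors 6 and 4, and DESeq2 0 and 4 (7 and 4 by unadjusted p). Shares of all tested genes called are given above for the main fit, edgeR and DESeq2 only. The other counts show how the calls move with the setting and are no trait of the members. Leaving out 1 library moved both counts, down or up. Leaving out either control library leaves 1 control, whose spread is taken from the other genotype. By unadjusted p, 14 decreased and 5 increased became 4 to 17 and 3 to 6 when 1 library was left out, 3 were increased with the GC trend removed, and the settings not named here stayed within 1.5 times the main counts. The replicate block gave 10 decreased and 2 increased. Same-numbered libraries did not deviate together (r = -0.03 over the members, -0.01 over all genes), so the numbers were not taken as pairs. Genes near 0 changed sign. Mrpl3 was 0.13 after centring and -0.36 to 0.19 with 1 library left out. Mrps22 was 0.0286 after centring and 0.0076 thinned, and Mrps18b was -0.15 thinned and -0.84 to 0.96 with 1 library left out. Dap3 was 0.21 after centring, 0.0439 in edgeR, 0.0450 in edgeR with DESeq2 size factors, 0.0425 thinned, 0.0165 in DESeq2 and -0.40 to 0.39 with 1 library left out. Ptcd3 was -0.22 with the GC trend removed. Aurkaip1 was -0.12 to 0.76 with 1 library left out. The cause of these changes was not tested. At this depth the Eef1g-cKO libraries limit every member with few reads.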
